A study of Citrus reticulata with 36 samples.

Results

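Ponkan (Citrus reticulata) is a loose-skinned mandarin, and the 42 gene identifiers described here had higher read counts in the cultivar "Egan No.1" (EG) than in the cultivar "Huagan No.4" (HG) at each of 3 times after pollination in at least 1 of 2 ovule tissues. They were chosen from these measurements. Counts were scaled to the total of their library (CPM), and 44734 of 128861 identifiers averaged at least 1 CPM over the 36 libraries. An identifier was a member if, in nucellus or in integument, the lowest of 3 EG libraries lay above the highest of 3 HG libraries at 18, at 28 and at 32 days after pollination (DAP). The rule held for 9 identifiers in nucellus and for 33 in integument, and 0 met it in both tissues.

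The study sequenced RNA of laser-captured ovule tissue in 12 groups: nucellus and integument, of HG and of EG, at 18, 28 and 32 DAP, with 3 libraries each. No treatment, transgene or mutation is named for any group, and all material carried the label of pollinated ovules of 1 of the 2 ponkan cultivars. No label names the tree or fruit a captured region came from, so regions of a group, and the nucellus and integument libraries of a cultivar, may share a fruit. The p-values below measure the spread between these samples and are too small if regions of a group share a fruit. The comparison of nucellus with integument left out any pairing of the 2 tissues. A fruit shared between the tissues need not make the p-values of that comparison too small.

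The integuments are the outer layers of the ovule and become the seed coat. The nucellus is the tissue inside them that surrounds the embryo sac. In many citrus types, additional embryos arise from nucellar cells, so this tissue is of interest for seed formation and seed number. The identifiers come without gene names, descriptions or sequences, so no role is given to any member and the markers of nucellus, integument, endosperm and embryo could not be looked up. Whether the captured tissues carried cells of another kind was therefore not tested. In tissue RNA of this kind, fewer cells of a type and less RNA per cell cannot be told apart.

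The libraries held 12687779 to 20947644 counts, over 55947 to 69127 identifiers with at least 1 count. EG nucellus replicate 1 at 28 DAP stood apart. It had the fewest identifiers, the largest distance from the other libraries of its group (chi-square per degree of freedom of 148 and 206), and a count of 0 for 3 integument-rule members. EG replicates 2 and 3 at 32 DAP were the closest pairs of all (8.41 in integument and 10.7 in nucellus), although both differed by more than sampling noise. At 18 DAP more identifiers had counts in EG than in HG, with 66234 to 67490 against 58421 to 63014 in integument and 64072 to 67660 against 59573 to 61762 in nucellus, whereas at 28 and 32 DAP these ranges overlapped in both tissues.

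If the 6 libraries of each stage were exchangeable and the stages independent, EG would lie above HG in 1 of 20 cases per stage, and at all 3 stages in 1 of 8000, which is 5.59 identifiers per tissue. The 9 nucellus members were 0.0201% of the identifiers and the 33 integument members 0.0738%. The stages were far from equal in this respect. In integument, EG lay above HG without overlap for 6.86%, 5.62% and 14.2% of identifiers at 18, 28 and 32 DAP. In nucellus the shares were 3.72%, 2.35% and 10.5%. The product of the 3 shares gives 24.4 identifiers in integument and 4.12 in nucellus, so the observed counts were 1.35 and 2.19 times what the per-stage shares alone give. Exactly 2 stages met the criterion for 944 identifiers in integument and 392 in nucellus.

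The opposite rule, HG above EG at every stage, held for 48 identifiers in nucellus and 13 in integument with total counts. These were 1.31 and 0.784 times what the per-stage shares of that direction give, so a ratio above 1 was not particular to EG. EG-high identifiers were 15.8% of both directions in nucellus and 71.7% in integument. This balance moved with the scaling of the libraries. With TMM library sizes, which remove shifts shared by most identifiers, the EG-high share was 32.7% in nucellus (18 against 37) and 42.3% in integument (33 against 45). In integument the larger direction thus turned from EG to HG, while in nucellus HG-high identifiers remained the more numerous. The opposite rule no longer held more often in nucellus (37) than in integument (45). With total counts, the median log2 difference between EG and HG over all identifiers was -0.24 in nucellus at 28 DAP and 0.12 in integument at 32 DAP, and TMM brought both within 0.03 of 0.

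TMM scaling also exchanged members. It kept 5 of the 9 nucellus members and 11 of the 33 integument members, with 18 and 33 meeting the rule in all. The authors' FPKM values, which are scaled per length and depth, kept 7 of 9 and 30 of 33. Both scalings together kept 3 nucellus and 11 integument members, among them c87276_g1 and c109115_g1, the most widely separated members in integument. The leading pair in nucellus, c65943_g1 and c17027_g1, was kept with FPKM and lost with TMM.

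**Figure D1:**
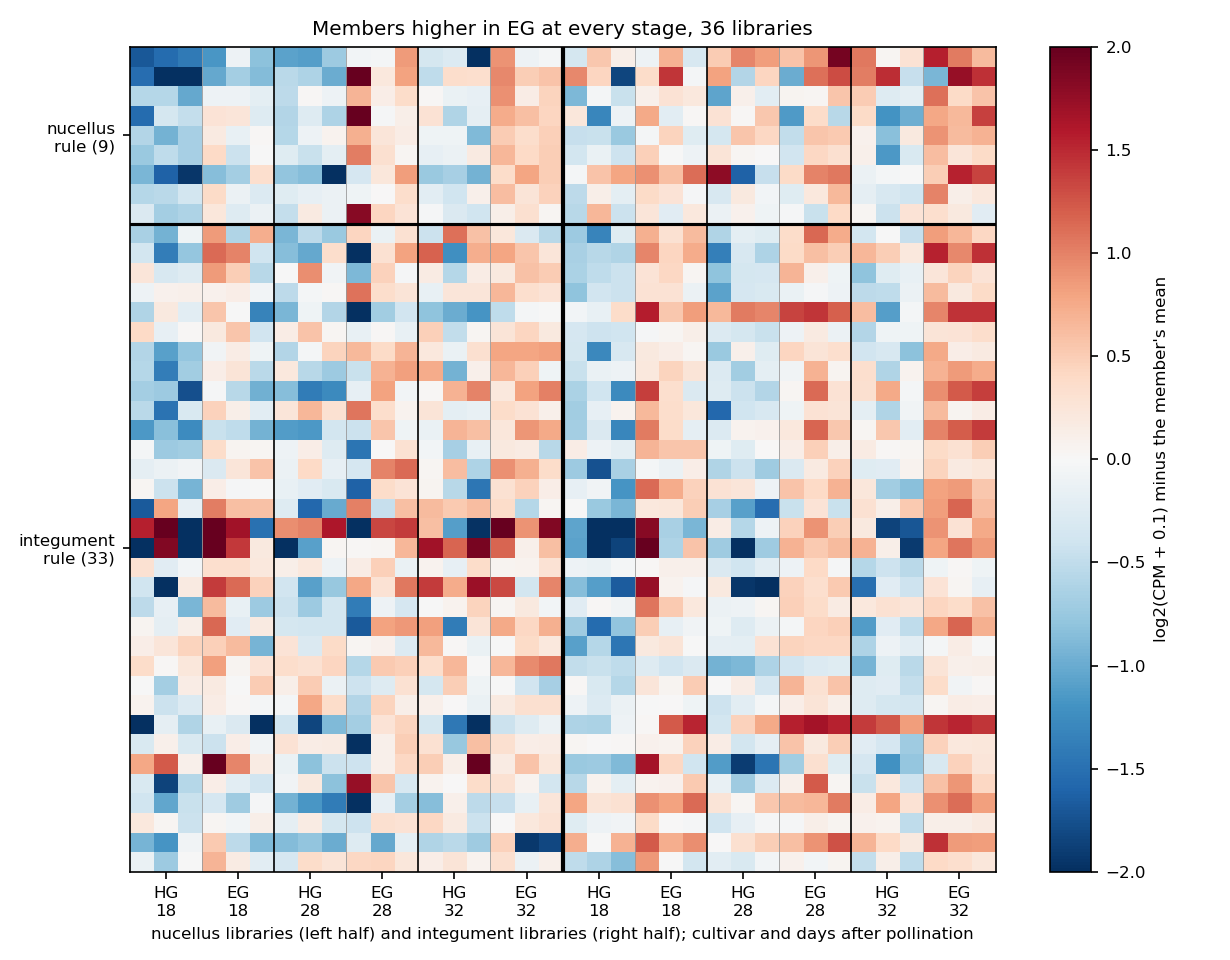
Levels of the 42 members (rows, ordered by rule and by separation of the cultivars) in the 36 libraries (columns), as log2(CPM + 0.1) minus the member's mean, with colours held at -2 and 2. The EG columns of the tissue that chose each member are redder than the neighbouring HG columns by construction, while the other tissue shows a weaker and more mixed pattern, and the first EG nucellus column at 28 DAP has several deep blue cells.

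The separation of the cultivars was modest for most members. Values from the tissue that chose a member describe the selection and carry no test. Over 9 libraries each, the EG mean was 1.39 to 2.71 times the HG mean for the nucellus members (median 1.67) and 1.19 to 4.03 times for the integument members (median 1.60). It was at least 2 times as high for 4 of 9 and 8 of 33 members, and at least 2 times as high at every stage for 1 member of each set. By stage, the median ratio was 1.68, 2.20 and 1.55 at 18, 28 and 32 DAP in nucellus, and 1.72, 1.51 and 1.65 in integument. Neither set thus showed a steady increase of the cultivar ratio with time. The nucellus ratios at 28 DAP rested in part on EG replicate 1, the library that stood apart. There c90175_g1 had 42.9 CPM, against 16.3 and 14.7 CPM in replicates 2 and 3, and c2135_g1 had 10.6 against 2.08 and 2.31 CPM. For c65943_g1, c27619_g1 and c33627_g1 replicate 1 was instead the lowest EG library at 28 DAP. The nucellus median of 1.67 is the ratio of c90175_g1.

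At the closest stage of each member, the lowest EG library had 1.02 to 1.12 times the level of the highest HG library in nucellus and 1.00 to 1.33 times in integument. The margin was under 1.1 times for 8 of 9 and 26 of 33 members. Counting error spans most of the margins over the stages. The exact 95% interval of the lowest EG over the highest HG count, scaled to the totals, was taken for each member and stage. It lay above 1 for 7 of 27 such pairs in nucellus and for 32 of 99 in integument. At every stage it lay above 1 for 0 of 9 nucellus members and for 2 of 33 integument members, c87276_g1 and c109115_g1. The interval leaves out every other error, and amplified reads are not independent molecules. The rule itself required each of these ratios to exceed 1, so the intervals describe counting error and are no test of the cultivars.

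c87276_g1 had the widest separation in integument. Its EG levels were 19.4, 14.7 and 18.5 CPM at 18 DAP, 15.3, 26.6 and 19.9 CPM at 28 DAP, and 21.3, 18.9 and 15.8 CPM at 32 DAP. The HG levels were 7.14, 4.70 and 10.0 CPM, then 7.78, 10.4 and 9.99 CPM, then 9.15, 11.8 and 8.60 CPM at these times. All 9 EG integument libraries of c87276_g1 lay above all 9 HG ones, not only within a stage, with means of 18.9 ± 3.64 and 8.85 ± 2.10 CPM (SD, n = 9), a ratio of 2.14. In nucellus the same identifier was not separated in this way. EG had 16.3 ± 7.46 CPM and HG 8.25 ± 2.62 CPM at 18 DAP, 13.8 ± 2.72 and 7.20 ± 0.992 CPM at 28 DAP, and 10.5 ± 2.99 and 17.4 ± 8.40 CPM at 32 DAP (SD, n = 3). The order of the cultivar means at 32 DAP was therefore opposite to that in integument, with HG nucellus replicate 2 the highest library at 25.5 CPM.

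c109115_g1 was the second in integument. Its EG levels were 11.8, 8.07 and 10.0 CPM at 18 DAP, 7.83, 9.09 and 8.39 CPM at 28 DAP, and 17.5, 11.7 and 16.6 CPM at 32 DAP. The HG levels were 3.78, 4.04 and 3.91 CPM, then 2.26, 4.74 and 3.87 CPM, then 9.53, 8.44 and 6.90 CPM. Both cultivars were highest at 32 DAP, and the highest HG library at that time exceeded the EG libraries of 28 DAP. In nucellus the libraries overlapped at every stage, from 0 in EG replicate 1 at 28 DAP to 13.6 CPM in HG replicate 1 at 32 DAP.

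c65943_g1 led the nucellus members. Its EG nucellus levels were 1.87, 4.02 and 2.39 CPM at 18 DAP, 4.14, 4.22 and 7.85 CPM at 28 DAP, and 8.13, 4.02 and 4.18 CPM at 32 DAP. The HG levels were 1.26, 1.41 and 1.56 CPM, then 2.00, 1.95 and 2.58 CPM, then 3.36, 3.56 and 0.925 CPM. The lowest EG library of 18 DAP was under the highest HG libraries of the later stages, so the separation of c65943_g1 held within each stage and not across stages. In integument c65943_g1 was more abundant in both cultivars, with 8.23 ± 4.16 CPM in EG and 6.18 ± 1.96 CPM in HG (SD, n = 9), and the cultivars overlapped at every stage.

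c17027_g1 was the second in nucellus, at levels where few reads carry each value. EG had 0.415, 0.558 and 0.479 CPM at 18 DAP, 4.38, 1.12 and 1.73 CPM at 28 DAP, and 1.96, 1.37 and 1.46 CPM at 32 DAP. HG had 0.265 CPM (4 counts) and 2 libraries at 0 at 18 DAP, 0.626, 0.585 and 0.430 CPM at 28 DAP, and 0.640, 1.24 and 1.23 CPM at 32 DAP. The EG libraries of 18 DAP lay below most HG libraries of the later times. The highest value, in EG at 28 DAP, came from replicate 1, the library that stood apart.

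**Figure D2:**
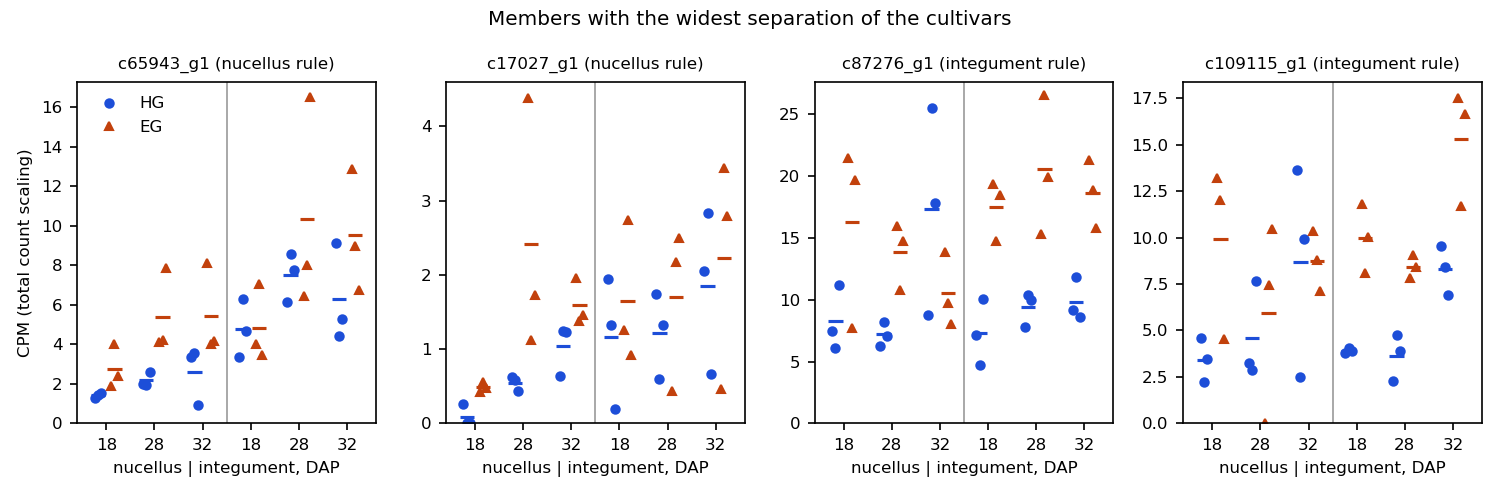
CPM (linear axes from 0) of the 2 members with the widest separation in each set, by days after pollination, in nucellus (left of each line) and integument (right); circles are HG libraries, triangles EG libraries and bars the means of 3. In integument all EG triangles of c87276_g1 lie above all HG circles, whereas in nucellus the HG mean is higher at 32 DAP; the c65943_g1 and c17027_g1 libraries overlap in integument.

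Identifiers just inside and just outside the threshold differed little. Just inside it, the lowest EG library of c90175_g1 in nucellus at 18 DAP had 10.1 CPM and the highest HG library 9.89 CPM, from 181 and 149 counts. Just outside it, c123333_g1 in nucellus at 32 DAP had 3.97 CPM in the lowest EG and 4.01 CPM in the highest HG library, from 79 and 52 counts. In integument at 28 DAP the closest member, c63861_g1, had 17.71 against 17.69 CPM from 310 and 347 counts, and the closest non-member, c42128_g1, had 8.17 against 8.18 CPM from 151 and 141 counts. For c90175_g1 at 18 DAP the exact 95% interval of the ratio was 0.818 to 1.28, which includes 1.

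The members were ordinary in abundance and somewhat short. Their mean level ran from 1.08 to 137 CPM with a median of 9.67, against 7.98 CPM over all 44734 identifiers, and 24 of 42 exceeded that value. Per length, the median was 6.70 FPKM for the members and 4.49 FPKM for all. The length that the counts and FPKM values imply together had a median of 1365 bp for the members. It was 990 bp in the nucellus set and 1405 bp in the integument set. Over the 44078 identifiers with such a length the median was 1950 bp, and 13 of 42 members were longer than that. No library had a count of 0 for 8 of 9 nucellus members and 28 of 33 integument members.

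The rule compared the cultivars of a member in only 1 tissue, although its CPM minimum was a mean over all 36 libraries. The other tissue was measured in separate libraries. These are not independent of the libraries that chose the members: same-numbered nucellus and integument libraries of a cultivar and stage deviated together, with a median correlation of 0.411 over 18 pairs. How far this raised the values below was not tested. The difference between EG and HG was fitted over the 3 stages with edgeR (quasi-likelihood test, TMM scaling, p adjusted by Benjamini-Hochberg over 57344 identifiers), and called means an adjusted p under 0.05. Unless stated otherwise, shares of all identifiers called or under an unadjusted p are over these 57344. Shares by CPM levels are over the 44734 with a mean of at least 1 CPM. In integument, 0 of the 9 nucellus members was called higher in EG, where 0% of all identifiers was, and the smallest adjusted p among them was 0.277. DESeq2 called 0 of 9 as well, and 0.272% of all. In nucellus, 0 of the 33 integument members was called by edgeR, against 0.00174% of all, with a smallest adjusted p of 0.107. DESeq2, which called 0.281% of all identifiers higher in EG there, called 3 of these 33, among them c3279_g1 and c112277_g1.

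The size and direction of the differences in the other tissue were less balanced than these calls. The fitted log2 difference was above 0 for all 9 nucellus members in integument, with a range of 0.05 to 0.64 and a median of 0.37. Over all identifiers with the same mean CPM, 49.3% were above 0 and the median was -0.0053. At an unadjusted p under 0.05, 4 of 9 were higher in EG, against 4.40% of these identifiers and 5.06% of all tested. With total counts, the EG mean was higher at all 3 stages for 8 of 9, against 15.1% of all. The EG libraries lay above the HG libraries without overlap at 1 or more stages for 6 of 9, against 24.4% of all identifiers.

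The integument members read in nucellus gave a similar picture. The log2 difference was above 0 for 32 of 33, with a range of -0.01 to 1.00 and a median of 0.53, where 50.3% of all identifiers were above 0 with a median of 0.0019. At an unadjusted p under 0.05, 17 of 33 were higher in EG and 0 lower. Among identifiers with a mean CPM of at least 1, 5.28% were higher, and among all tested 5.24%. The EG mean was higher at all 3 stages for 14 of 33, against 7.16% of all, and groups did not overlap at 1 or more stages for 14 of 33, against 15.7% of all. By stage and with total counts, the EG mean was higher for 32 of 33 members at 18 DAP, for 22 at 28 DAP and for 22 at 32 DAP, where 46.1%, 31.8% and 49.8% of all identifiers were.

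The median of 0.53 rested in part on EG nucellus replicate 1 at 28 DAP. Without that library it was 0.33, with 31 of 33 members above 0 and 14 at an unadjusted p under 0.05. Members of a tissue's list are not replicates of the cultivars, and the counts over a list carry no p. With total counts, the EG to HG ratio of the 9-library means in the other tissue was 1.07 to 1.57 (median 1.41) for the nucellus members in integument, and 0.939 to 1.85 (median 1.24) for the integument members in nucellus. It was under 1 for 4 of the latter.

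The member that came closest to meeting the rule in both tissues was c3279_g1, which was singled out after its values were seen. In nucellus its EG libraries had 30.9, 36.0 and 30.6 CPM at 18 DAP and its HG libraries 21.5, 15.2 and 18.9 CPM. At 28 DAP the values were 50.8, 42.1 and 51.7 CPM in EG and 21.5, 31.6 and 44.2 CPM in HG. At 32 DAP they were 56.2, 56.2 and 57.0 CPM in EG and 37.6, 29.6 and 40.4 CPM in HG. A single HG library, replicate 3 at 28 DAP, thus exceeded the lowest EG library, and the other stages did not overlap. The fitted difference in nucellus was 0.81 on the log2 scale (SE 0.19), with an edgeR adjusted p of 0.107. In integument, which chose it, EG had 39.6 ± 6.59 CPM and HG 23.9 ± 6.26 CPM (SD, n = 9).

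**Figure D3:**
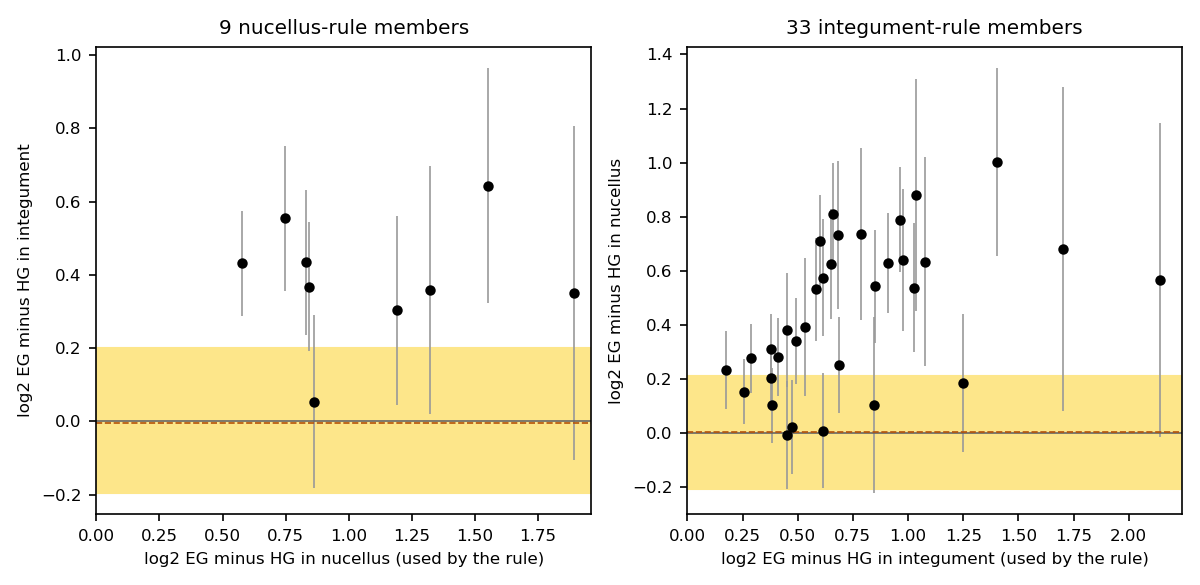
Fitted log2 difference EG minus HG over the 3 stages in the tissue that did not choose a member (vertical axis, bars 1 SE) against the difference in the tissue that did (horizontal axis), for the 9 nucellus members and the 33 integument members. The shaded band is the interquartile range of all identifiers with a mean of at least 1 CPM and the dashed line their median. All 9 points on the left and 32 of 33 on the right lie above 0, with medians of 0.37 and 0.53.

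None of the 4 leading members passed the test in the other tissue. The difference of c65943_g1 in integument was 0.30 (SE 0.26, edgeR adjusted p = 0.752) and that of c17027_g1 was 0.35 (SE 0.46, adjusted p = 0.860). In nucellus, c87276_g1 differed by 0.54 (SE 0.24, adjusted p = 0.412) and c109115_g1 by 0.63 (SE 0.39, adjusted p = 0.587). A p over the threshold does not show that the cultivars had equal levels there.

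The rule set the cultivars against each other within a tissue and did not use the difference between tissues. Between nucellus and integument, over both cultivars and all stages, 18 of 42 members were called. Of these, 6 were higher in nucellus, where 16.6% of all identifiers were, and 12 were higher in integument, where 18.9% of all were. The 9 nucellus members gave 0 and 3, and the 33 integument members 6 and 9.

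Among the members higher in integument, c37733_g1 had 8.26 ± 3.37 CPM there and 3.27 ± 1.5 CPM in nucellus (SD, n = 18). It ran from 2.03 over 8.46 to 13.5 CPM (lowest, median, highest) in integument and from 0 over 3.03 to 6.65 CPM in nucellus, so the tissues overlapped. The log2 difference of nucellus minus integument was -1.38 (SE 0.23, edgeR adjusted p = 1.33e-05). c24910_g1 had 20.7 ± 5.99 CPM in integument (12.3, 20.4 and 34.4 CPM) and 8.44 ± 3.99 CPM in nucellus (3.17, 7.36 and 17.9 CPM), a difference of -1.33 (SE 0.18, adjusted p = 5.83e-07). The only libraries of c24910_g1 in nucellus above the lowest of integument were 2 EG libraries, replicate 1 at 18 and at 32 DAP.

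Among the members higher in nucellus, c94290_g1 had 14.2 ± 3.65 CPM there (7.0, 13.5 and 21.9 CPM) and 8.2 ± 1.99 CPM in integument (5.40, 8.0 and 12.6 CPM), and its lowest nucellus library was EG replicate 1 at 28 DAP. The log2 difference was 0.75 (SE 0.10, adjusted p = 6.77e-07). c19797_g1 had 11.3 ± 4.17 CPM in nucellus and 8.2 ± 2.62 CPM in integument, with a difference of 0.44 (SE 0.14, adjusted p = 0.0164). Both were chosen by the integument rule, so they were separated between cultivars in the tissue where they were less abundant. The same held for c65943_g1, the leading nucellus member, which was lower in nucellus by 1.26 on the log2 scale (SE 0.19, adjusted p = 2.57e-06; nucellus minus integument -1.26).

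**Figure D4:**
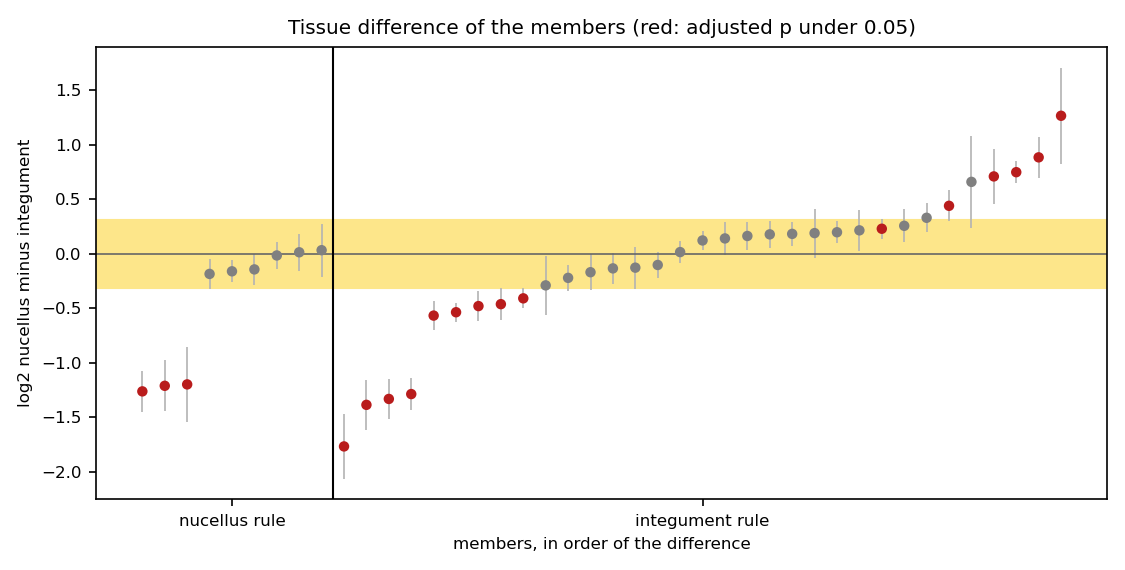
Fitted log2 difference nucellus minus integument of the 42 members, in rising order within each set, with bars of 1 SE; red points passed an adjusted p of 0.05 and the band is the interquartile range of all identifiers with a mean of at least 1 CPM. Of the members called, 6 lie above 0, all of them integument members, and 12 below, from both sets.

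The change with time, which the rule also left out, was called for few members. From 18 to 32 DAP in nucellus, over both cultivars, 2 of 42 members rose (0.0453% of all identifiers did) and 0 fell (0.0471% did). In integument 0 rose (0.0122% of all) and 0 fell (0.0157%). At an unadjusted p under 0.05, 6 members were rising there and 0 falling, against 4.45% and 5.03% of all. DESeq2 called 2 rising, against 0.371% of all. The fitted change was above 0 for 33 of 42 members in nucellus (median 0.23) and for 31 of 42 in integument (median 0.19), against medians of -0.0067 and -0.0077 over all identifiers of that mean CPM.

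Both identifiers that rose in nucellus were chosen by the integument rule. c112277_g1 had 10.9, 10.6 and 5.14 CPM in HG and 17.2, 11.9 and 8.99 CPM in EG nucellus at 18 DAP, and 17.9, 28.7 and 35.0 CPM in HG and 20.5, 30.9 and 35.7 CPM in EG at 32 DAP. All 6 libraries of 32 DAP exceeded all 6 of 18 DAP, and the log2 change was 1.40 (SE 0.24, edgeR adjusted p = 0.00996). This call rested on single libraries, since the adjusted p was 0.0523 without HG nucellus replicate 3 at 18 DAP and 0.0631 without EG nucellus replicate 3 at 32 DAP. c50701_g1 had 4.98, 6.16 and 4.60 CPM in HG and 8.17, 7.81 and 5.74 CPM in EG nucellus at 18 DAP, and 10.2, 17.8 and 16.9 CPM in HG and 13.1, 20.7 and 18.9 CPM in EG at 32 DAP. Its groups did not overlap between these times either, and the log2 change was 1.38 (SE 0.23, adjusted p = 0.00670).

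In integument the cultivar difference of this pair is what the rule required, and its levels are given as a description. c112277_g1 had 27.6 ± 16.5, 26.1 ± 11.1 and 40.4 ± 6.21 CPM in EG at 18, 28 and 32 DAP, and 10.6 ± 3.07, 13.1 ± 1.48 and 23.0 ± 6.36 CPM in HG (SD, n = 3). c50701_g1 had 15.7 ± 6.65, 18.1 ± 6.33 and 25.9 ± 3.72 CPM in EG and 6.81 ± 2.32, 10.9 ± 1.5 and 12.4 ± 3.39 CPM in HG. For the difference of the 18 to 32 DAP change between the tissues, 0 of 42 members was called. Of all 57344 identifiers, 0 were called higher and 1 lower, so this count says little about the members. A rise limited to nucellus was not shown.

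**Figure D5:**
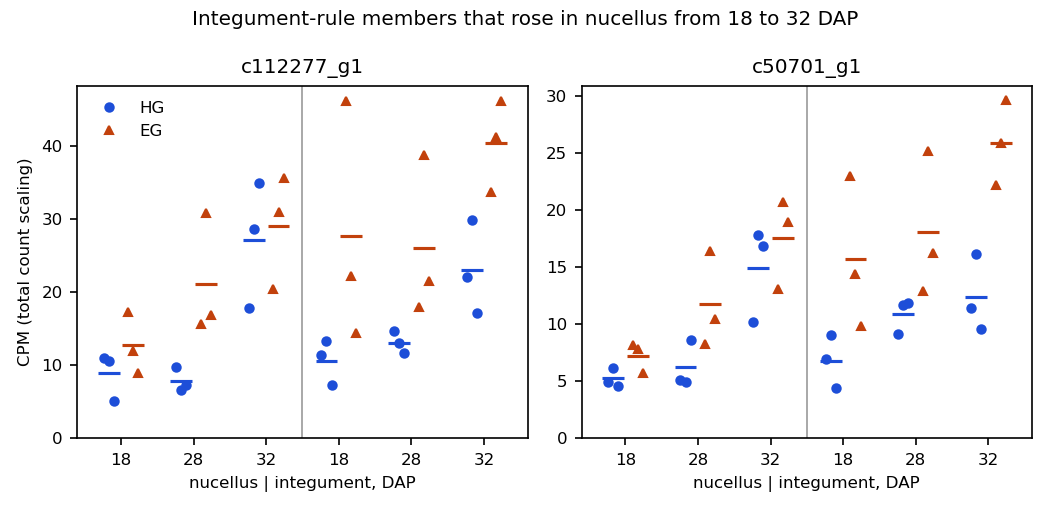
CPM (linear axes from 0) of the 2 members that rose in nucellus from 18 to 32 DAP, by days after pollination in nucellus (left of each line) and integument (right); circles are HG libraries, triangles EG libraries and bars the means of 3. In nucellus all libraries of 32 DAP lie above all libraries of 18 DAP for both members.

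These 2 identifiers were also the most alike pair of members. Their CPM had a Spearman correlation of 0.937 over the 36 libraries, given as a description because the libraries share groups and depth. The median over the 861 pairs of members was 0.339, and 2 pairs reached 0.8. Outside the members, the identifiers most like c65943_g1 were c114312_g1 (0.939) and c31637_g1 (0.896), and those most like c87276_g1 were c75693_g1 (0.784) and c111016_g1 (0.762), over the same 36 libraries. None of these 4 met the rule. Reads of 1 gene may be divided over several identifiers in this table, and whether any of these pairs come from 1 gene was not tested.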

How the data were processed

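The authors deposited read counts per gene identifier, which are whole numbers, and FPKM values with the same rows and columns. The submitters' processing notes name cutadapt, Bowtie2, RSEM and DESeq. The sources used here give no version, setting or genome build, nor whether estimated counts were rounded. Per the labels' protocols, RNA of laser-captured cells was amplified as cDNA from random primers and sequenced in pairs on 2 instrument models, and which model read which library is not given. Column names give cultivar, tissue, replicate and a stage number. Taking stages 1 to 3 as 18, 28 and 32 DAP is an assumption that no label states.

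The members, lists and tests were chosen with earlier results of these data known. Levels are CPM on total counts. The tests used edgeR 4.0.16 (R 4.3.3) on the counts as deposited: TMM, filterByExpr (at least 10 counts, 15 in total), which left 57344 identifiers with 99.9% of counts, 1 mean per group over 36 libraries, 24 residual degrees of freedom, robust quasi-likelihood F tests and Benjamini-Hochberg adjustment at 0.05. The biological coefficient of variation was 0.439. The SE of a log2 change was derived from the change and its F statistic. The code was tested on simulated data. Chi-squares between libraries used identifiers with a summed count of at least 20. Lengths came from the count, FPKM and total of each library with at least 20 counts and an FPKM of at least 1 for the identifier.

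Named members are, per set, the 2 with the widest and the 1 with the narrowest margin, after adding 0.1 CPM, the nearest non-member, and up to 2 per direction and test by fitted change among those called with at least 5 CPM. DESeq2 1.42.0, limma 3.58.1 on log2(FPKM + 0.1), other scalings, filters, a replicate block and leaving out each library were alternatives. Because identifiers carry no names, a comparison names at most 2 of them per direction.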

Additional observations from a re-analysis of the deposited data

How the results depend on the processing

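The number of members moved more than any test result. With TMM library sizes the nucellus rule held for 18 identifiers, and without a CPM minimum for 15. Leaving out 1 library makes the rule easier, since 2 libraries then face 3: it gave 9 to 44 nucellus members, 33 to 124 integument members, 44 to 132 in either tissue and 0 to 1 in both. In nucellus, counts over 1.5 times the 9 came without EG replicate 1 (44), 2 (14) or 3 (14) at 28 DAP, EG replicate 3 at 18 DAP (16), EG replicate 1 at 32 DAP (15), or HG replicate 3 at 18 DAP (21), 3 at 28 DAP (21) or 2 at 32 DAP (17). In integument they came without EG replicate 1 (124) or 3 (56) at 28 DAP, EG replicate 3 at 18 DAP (62), or HG replicate 1 at 18 DAP (51), 1 (56) or 3 (64) at 28 DAP, or 1 at 32 DAP (50). In either tissue, the count was 77 without EG nucellus replicate 1 at 28 DAP. It was 132 and 65 without EG integument replicates 1 and 3 at 28 DAP, 71 without EG integument replicate 3 at 18 DAP, and 65 (replicate 1) and 73 (replicate 3) when an HG integument library of 28 DAP was left out. A single identifier met the rule in both tissues without HG nucellus replicate 3, EG nucellus replicate 2 or EG integument replicate 1, all at 28 DAP.

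In the other tissue, DESeq2 called 3 integument members in nucellus (0.281% of all identifiers), and edgeR 0 to 1 when a library was left out (1 without HG nucellus replicate 1 at 32 DAP). At an unadjusted p under 0.05, limma on FPKM gave 11 of 33 (2.25% of all), and leaving out libraries 13 to 18 of 33 and 2 to 5 of the 9 nucellus members in integument (2 without HG replicate 2 at 32 DAP or EG replicate 2 or 3 at 28 DAP). Members higher in nucellus than integument numbered 3 without a filter on low counts and 4 to 7 when a library was left out. DESeq2 called 2 members rising with stage in integument (0.371% of all). Members rising in nucellus numbered 1 to 2 when a library was left out (1 without HG replicate 3 at 18 DAP or EG replicate 3 at 32 DAP). Where no share of all identifiers stands beside a count here, the count shows only how the members' calls moved with the setting. No median over a set and no named difference changed sign, whereas the balance of the 2 directions of the rule in integument turned with TMM, from 71.7% to 42.3% EG-high. The causes were not tested.

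The labels number the replicates without stating that equal numbers share material. Of 18 nucellus libraries, 17 correlated best with the integument library of their own number. Between cultivars, 7 of 18 libraries correlated best with their own number. Same-numbered nucellus and integument libraries had correlated deviations over 0.1 in 17 of 18 pairs (0.0815 to 0.627), and same-numbered HG and EG libraries in 6 of 18. With the replicate block, members called were 17 by tissue (20 with nucellus and integument paired), 2 by stage in nucellus and 0 by stage in integument. It called 0 members in either other-tissue comparison, with medians of 0.42 and 0.47, 9 of 9 and 31 of 33 above 0, and 4 and 15 at an unadjusted p under 0.05. The shares of all identifiers in these block fits are not given here. The counts therefore show only how the members' calls moved.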
